A study of Mus musculus with 4 samples.

Results

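The paracrine fibroblast growth factor (FGF) ligands measured here are the secreted family members that act on nearby cells. They were taken as a list of 10 genes by name, *Fgf1*, *Fgf2*, *Fgf7*, *Fgf8*, *Fgf9*, *Fgf10*, *Fgf16*, *Fgf18*, *Fgf20* and *Fgf22*. No measured value entered the rule for the list, but earlier results of these data were known when it was chosen. All 10 were present among the 23946 genes of the deposited tables. RNA from frontal and parietal bones of C57BL/6J mice at postnatal day 21 was profiled by bulk RNA-seq in 4 libraries: wild-type (WT) frontal, WT parietal, *Twist1*+/- frontal and *Twist1*+/- parietal bone. *Twist1*+/- mice carry a single working copy of *Twist1* in every cell, and the labels give 12 mice for each strain without saying how many went into a library. The study describes its parietal bones as holding pericranium and dura mater along with the bone plate, but its RNA-seq methods do not say which tissues were left on the bones. With 1 library per group, the differences below could not be checked against replicates and carry no p-value.

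Paracrine FGF ligands are held close to the cells that release them by heparan sulfate, and signal through the tyrosine kinase receptors Fgfr1 to Fgfr4. In the skull they act between the dura mater, the sutures and the bone fronts, where FGF signalling sets the balance of proliferation and differentiation of osteoblast precursors. Twist1 is a basic helix-loop-helix factor that binds E-box DNA (CANNTG), and the study asked how loss of a copy affects frontal bone, which forms from neural crest, and parietal bone, which forms from mesoderm.

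Values are FPKM (fragments per kilobase of transcript and per library size), as the authors computed them. FPKM is scaled per length, so levels of different genes can be set side by side. The threshold for a call was a difference of over 3-fold between libraries, with 1 FPKM or more in the higher of them. *Twist1* was at 59.0 FPKM in WT frontal, 30.4 in *Twist1*+/- frontal, 52.5 in WT parietal and 50.7 in the parietal library labelled *Twist1*+/-. Its level does not set the last library apart from WT parietal bone, and directions given for that library are those of its label. *Fgf23*, the gene the study followed, did differ between the parietal libraries, at 20.9 FPKM in WT and 0.202 FPKM in the other. The bone markers *Bglap*, *Sp7* and *Runx2* were present in every library, *Bglap* at 5220 FPKM or more, whereas *Col1a1* and *Col1a2* were listed at 0 in every library except WT parietal bone, so a value of 0 is not read as absence. The summed level of 10 brain and meninges markers ranged from 116 FPKM in WT parietal to 2336 FPKM in WT frontal bone, and that of 12 skeletal muscle markers from 131 FPKM in WT frontal to 3810 FPKM in WT parietal bone. The 10 nasal and airway epithelium markers summed to 23.7 FPKM in WT parietal, 347 in WT frontal, 1577 in *Twist1*+/- frontal and 1710 FPKM in the parietal library labelled *Twist1*+/-.

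Only *Fgf7* among the ligands passed the threshold, in the comparison of the WT bones, and *Fgf2* fell just short of it between the parietal libraries. The start regions of these ligands, and of *Fgf18*, which as deposited had the highest log2 ratio of the 5 ligands above 1 FPKM between the parietal libraries (0.94, or 0.63 against 0.97 for *Fgf9* with the GC trend subtracted), are shown so that their E-boxes can be read. They are the RefSeq windows on build GRCm38.p6 from 250 bases before to 50 bases after the annotated start, written 5′ to 3′ on the strand of the gene, with matches to CANNTG in capitals. *Fgf7* lies at chr2:126034408-126034707 on the forward strand, *Fgf2* at chr3:37348403-37348702 on the forward strand and *Fgf18* at chr11:33147351-33147650 on the reverse strand.
Fgf7: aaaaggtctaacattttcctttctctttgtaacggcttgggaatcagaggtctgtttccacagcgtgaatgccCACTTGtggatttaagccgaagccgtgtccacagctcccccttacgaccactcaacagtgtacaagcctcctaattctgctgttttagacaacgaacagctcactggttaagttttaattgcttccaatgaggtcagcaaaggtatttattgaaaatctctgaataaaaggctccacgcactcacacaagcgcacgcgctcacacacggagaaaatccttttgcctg
Fgf2: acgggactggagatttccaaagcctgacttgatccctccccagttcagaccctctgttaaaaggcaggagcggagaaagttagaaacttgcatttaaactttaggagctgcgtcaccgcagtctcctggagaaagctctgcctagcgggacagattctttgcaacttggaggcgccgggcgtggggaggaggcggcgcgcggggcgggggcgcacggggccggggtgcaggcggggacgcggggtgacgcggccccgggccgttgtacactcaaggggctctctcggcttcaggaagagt
Fgf18: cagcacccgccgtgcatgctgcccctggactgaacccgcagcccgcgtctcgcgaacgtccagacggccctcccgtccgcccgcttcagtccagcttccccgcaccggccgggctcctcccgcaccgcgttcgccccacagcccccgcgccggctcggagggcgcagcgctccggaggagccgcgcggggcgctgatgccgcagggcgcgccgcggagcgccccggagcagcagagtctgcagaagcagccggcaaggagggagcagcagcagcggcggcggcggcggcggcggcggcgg
The *Fgf7* window holds 1 match, CACTTG, 177 bases before the start. The windows of *Fgf2* and *Fgf18* hold no match. CANNTG reads the same on both strands, and 72.3% of 32851 such windows of the mouse genome hold at least 1 match. Windows were found for 6 of the 10 ligands. Among the others, *Fgf9* has 1 match, *Fgf10* has 2 and *Fgf22* has 4. A match to so short a motif is a description and gives no measure of binding.

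The ligands were expressed at low to moderate levels. The 5 ligands *Fgf1*, *Fgf2*, *Fgf7*, *Fgf9* and *Fgf18* were at 1 FPKM or more in 3 or 4 libraries, and the other 5 stayed under 1 FPKM in every library. The 10 ligands summed to 11.6 FPKM in WT frontal, 17.2 in WT parietal, 11.9 in *Twist1*+/- frontal and 12.1 FPKM in the parietal library labelled *Twist1*+/-. The receptors *Fgfr1*, *Fgfr2* and *Fgfr3* together were between 8.06 times (WT parietal) and 11.7 times (labelled *Twist1*+/- parietal) as abundant as the ligands. *Fgf1* was the highest ligand in each library. The order below it differed between libraries. *Fgf9* was second in both frontal libraries, *Fgf7* in WT parietal bone and *Fgf18* in the parietal library labelled *Twist1*+/-. In WT frontal bone *Fgf7*, *Fgf18* and *Fgf2*, ranked 3 to 5, lay between 1.01 and 1.04 FPKM, and their order cannot be resolved.

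**Figure D1:**
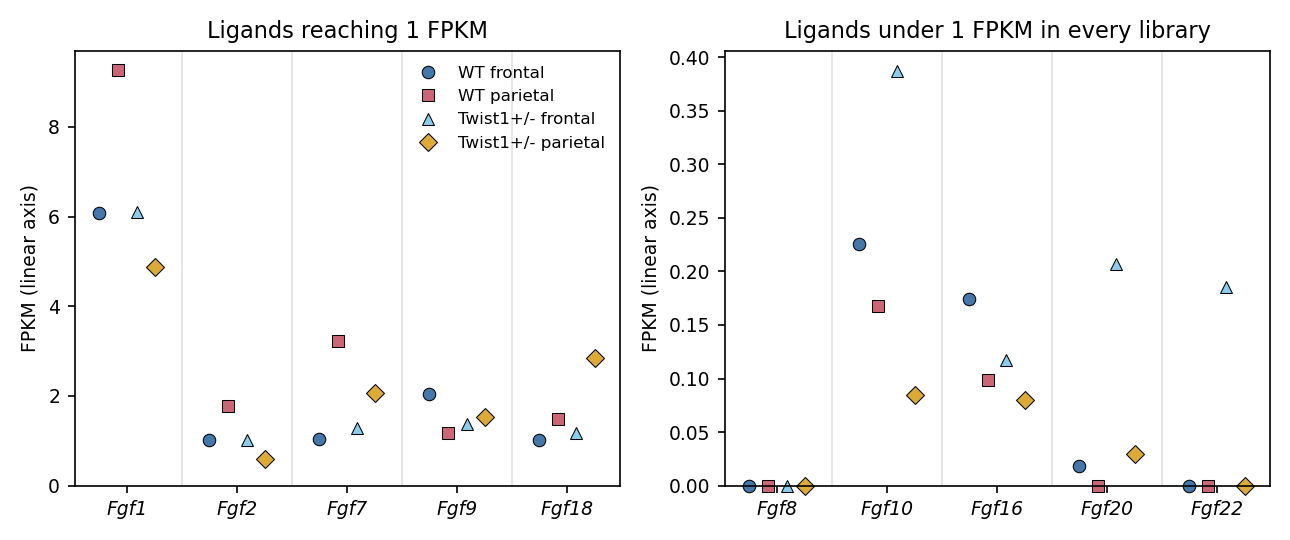
FPKM of each of the 10 paracrine FGF ligands (linear axes), 1 point per library, with the 5 ligands that reached 1 FPKM on the left and the 5 that did not on the right. *Fgf1* was highest in all 4 libraries, *Fgf7* ranged from 1.04 FPKM in WT frontal to 3.23 FPKM in WT parietal bone, and *Fgf8* was listed at 0 throughout.

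Because the files hold no counts, the reads behind these values were estimated. In genes of low level the values fall on steps, and for a transcript of 1 kilobase a read corresponded to about 0.0258 FPKM in WT frontal, 0.0335 in *Twist1*+/- frontal, 0.0439 in WT parietal and 0.0433 in the parietal library labelled *Twist1*+/-. The step was smallest in WT frontal bone. It would be the deepest library if FPKM was scaled by total reads, but the scaling used is not given. With the length of the longest transcript in the mm9 annotation, this gave about 449 to 938 reads for *Fgf1*, 86 to 254 for *Fgf9*, 103 to 197 for *Fgf7*, 37 to 71 for *Fgf18* and 17 to 50 for *Fgf2*. These numbers are approximate, since the authors used another annotation, and no interval is drawn from them.

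*Fgf1* and *Fgf2* are the prototype acidic and basic FGFs, which lack a signal peptide for classical secretion. *Fgf1* binds all FGF receptors. It was at 6.07 FPKM in WT frontal, 9.26 in WT parietal, 6.10 in *Twist1*+/- frontal and 4.88 FPKM in the parietal library labelled *Twist1*+/-. The frontal libraries were nearly equal, WT parietal bone was highest and the parietal library labelled *Twist1*+/- lowest. The log2 ratio of *Twist1*+/- to WT was -0.93 in parietal and 0.01 in frontal bone, and that of WT parietal to WT frontal bone was 0.61. *Fgf1* made up 52.3% of the summed ligand FPKM in WT frontal, 53.9% in WT parietal, 51.5% in *Twist1*+/- frontal and 40.2% in the parietal library labelled *Twist1*+/-. In each library it exceeded between 61.3% and 71.4% of all genes.

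*Fgf2*, a mitogen of osteoblast precursors, showed the same order of libraries at a lower level. It was at 1.01 FPKM in WT frontal, 1.77 in WT parietal, 1.03 in *Twist1*+/- frontal and 0.603 FPKM in the parietal library labelled *Twist1*+/-. The parietal libraries differed by 2.94-fold, a log2 ratio of -1.55, just inside the 3-fold limit. The frontal libraries were within 1.02-fold of each other. The estimated reads were 50 in WT parietal and 17 in the parietal library labelled *Twist1*+/-. In the mm9 annotation exons of *Fgf2* (chromosome 3, from 37211441 to 37304299, forward strand) overlap exons of *Nudt6* and *Cetn4* on the opposite strand and of *Bbs12* on the same strand. *Nudt6*, the antisense partner of *Fgf2*, was at 2.996 FPKM in WT frontal, 6.11 in WT parietal, 3.14 in *Twist1*+/- frontal and 4.34 FPKM in the parietal library labelled *Twist1*+/-. The libraries were made with a stranded kit, but the strand setting used in the quantification is not given in the sources used here, so reads of the overlap cannot be assigned with certainty.

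*Fgf7*, *Fgf10* and *Fgf22* form a subfamily whose main receptor is the b splice form of Fgfr2, found on epithelia. *Fgf7* (keratinocyte growth factor, made by mesenchymal cells) lies on chromosome 2 of mm9 from 125860394 to 125916921 and overlaps no exon of another gene. It was at 1.04 FPKM in WT frontal, 3.23 in WT parietal, 1.29 in *Twist1*+/- frontal and 2.07 FPKM in the parietal library labelled *Twist1*+/-. Both parietal libraries were above both frontal libraries. The WT bones differed by 3.11-fold, a log2 ratio of 1.64, which was the single call among the ligands and lay just past the 3-fold limit. Removing the median ratio of genes close in GC content brought it to 1.56, and scaling to *Gapdh* to 1.19, both under the limit. Between the parietal libraries the log2 ratio was -0.64, and it was -0.05 with the GC trend subtracted. Between the *Twist1*+/- bones it was 0.68. The nearest patterns to *Fgf7* over the 4 libraries, by Euclidean distance of centred log2(FPKM + 1) among 14760 genes, were those of *4833419F23Rik* (distance 0.0352), *Sod1* (0.0565) and *Psmb3* (0.0632). A pattern of 4 values is shared by many genes. Beside *Fgf7*, the 7 markers of periosteum and suture mesenchyme summed to 519 FPKM in WT frontal and 1191 FPKM in WT parietal bone. Most of the difference in these sums was *Postn*, at 396 and 1044 FPKM. *Twist1* (59.0 and 52.5 FPKM), *Axin2* (2.02 and 1.97 FPKM) and *Alx4* (14.8 and 14.0 FPKM) were slightly lower in WT parietal bone. Of the 7, 1 was called, *Msx2*, at 1.52 and 5.44 FPKM, and none was listed at 0. Over all genes, 13.3% of 14214 were called between the WT bones in either direction. All 10 brain and meninges markers were called lower in WT parietal bone, and 11 of 12 muscle markers were called higher. The other muscle marker, *Myh4*, was also higher there (0.206 FPKM in WT frontal, 0.921 in WT parietal bone) but stayed under 1 FPKM in both. Other tissue lists differed as well. In WT parietal bone 6 of 8 measured marrow and blood markers and 6 of 10 nasal and airway markers were called lower. Of 5 osteoclast markers 3 were called higher. None in these lists was called the other way. The part of these tissues in the *Fgf7* difference was not tested, and more cells of a type cannot be told apart from more RNA per cell in bulk samples.

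*Fgf10*, a mesenchymal ligand of limb and lung budding, stayed under 1 FPKM. It was at 0.226 FPKM in WT frontal, 0.167 in WT parietal, 0.387 in *Twist1*+/- frontal and 0.0842 FPKM in the parietal library labelled *Twist1*+/-, or about 36, 16, 47 and 8 reads. Both frontal libraries were above both parietal libraries. The *Twist1*+/- bones differed by 4.59-fold, which was not called because neither reached 1 FPKM. In the mm9 annotation an exon of *Gm16263* on the opposite strand overlaps *Fgf10*. Of the 4040 windows of 75 bases in *Fgf10*, 7 also occur in coding transcripts of another gene. *Fgf7* was 4.60 times as high as *Fgf10* in WT frontal and 3.35 times in *Twist1*+/- frontal bone, but 19.3 times in WT parietal and 24.6 times in the parietal library labelled *Twist1*+/-. This ratio lies within a library, so no scaling of libraries alters it. It was looked at after the values were seen. *Fgf22* was listed at 0 in 3 libraries and at 0.185 FPKM in *Twist1*+/- frontal bone, about 3 reads.

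*Fgf18*, with *Fgf8* a member of the Fgf8 subfamily, is the ligand best known for calvarial bone, where it is needed for timely osteoblast maturation and suture closure. Its mm9 position is chromosome 11, 33017430 to 33047400, reverse strand, and it overlaps no exon of another gene. *Fgf18* was at 1.02 FPKM in WT frontal, 1.48 in WT parietal, 1.17 in *Twist1*+/- frontal and 2.85 FPKM in the parietal library labelled *Twist1*+/-. That library was highest and the others lay close together. The log2 ratio was 0.94 between the parietal libraries, 0.19 between the frontal libraries and 1.28 between the *Twist1*+/- bones, none past 3-fold. Within a library, *Fgf18* was 1.01 times as high as *Fgf2* in WT frontal, 0.837 times in WT parietal, 1.14 times in *Twist1*+/- frontal and 4.72 times in the parietal library labelled *Twist1*+/-. This ratio too was chosen after the values were seen. *Fgf8*, an organiser of embryonic face and brain, was listed at 0 in every library.

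*Fgf9*, *Fgf16* and *Fgf20* form the Fgf9 subfamily, whose members are secreted without a cleaved signal peptide. *Fgf9*, which acts on skeletal growth and joint formation, was at 2.04 FPKM in WT frontal, 1.18 in WT parietal, 1.37 in *Twist1*+/- frontal and 1.54 FPKM in the parietal library labelled *Twist1*+/-. WT frontal bone was highest and WT parietal bone lowest, the reverse of *Fgf7*. The log2 ratio was -0.78 between the WT bones, 0.38 between the parietal and -0.57 between the frontal libraries. The summed brain and meninges markers were highest and lowest in the same libraries. The sums were 2336 FPKM in WT frontal, 785 in the parietal library labelled *Twist1*+/-, 716 in *Twist1*+/- frontal and 116 FPKM in WT parietal bone. *Ptgds* made up most of the WT frontal sum, at 1975 FPKM there and 52.8 FPKM in WT parietal bone. Not every marker had this order. *Mbp*, *Mog*, *Snap25* and *Tubb3* were highest outside WT frontal bone, and *Slc6a13* was lowest in *Twist1*+/- frontal bone. *Mbp* was at 108 FPKM in WT frontal bone and 270 FPKM in the parietal library labelled *Twist1*+/-. None of the 10 markers was at 0, and their part in the *Fgf9* values was not tested. *Fgf7* was 0.510 times as high as *Fgf9* in WT frontal and 2.73 times in WT parietal bone. *Fgf16* was between 0.0796 FPKM (labelled *Twist1*+/- parietal) and 0.175 FPKM (WT frontal), or about 3 to 11 reads. *Fgf20* was at 0.0179 FPKM in WT frontal and 0.0299 in the parietal library labelled *Twist1*+/-, about 1 read each, at 0 in WT parietal bone, and at 0.207 FPKM in *Twist1*+/- frontal bone, about 9 reads. An exon of *Efha2* on the opposite strand overlaps *Fgf20* in the mm9 annotation.

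Taking the ligands as a list, 5 of 10 could be called in each comparison, since the others stayed under 1 FPKM. None of the 5 was called between the parietal libraries, where 8.19% of 13914 genes were, and none between the frontal libraries, where 3.89% of 14341 genes were. Between the WT bones 1 of 5 was called, *Fgf7*, against 13.3% of 14214 genes in either direction and 4.07% higher in WT parietal bone. Between the *Twist1*+/- bones none was called, against 4.09% of 14305 genes. With a limit of 2-fold and values as deposited, *Fgf2* was lower in the parietal library labelled *Twist1*+/- than in WT parietal bone (background 20.2%). *Fgf18* was higher in that library than in *Twist1*+/- frontal bone (11.9%), and *Fgf7* was the single ligand called between the WT bones (26.9%). No ligand was called at 2-fold between the frontal libraries (7.18%). With lists so short these shares do not set the ligands apart from other genes. The median difference in log2(FPKM + 1) of the 10 ligands was -0.01 between the parietal and 0.06 between the frontal libraries, against 0 over all genes in both. It was 0 between the WT bones and -0.14 between the *Twist1*+/- bones, against 0 over all genes. Ligands near 0 FPKM hold these medians close to 0. Over the 5 ligands that could be called the median was -0.46 between the parietal, 0.01 between the frontal libraries, 0.46 between the WT bones and 0.10 between the *Twist1*+/- bones, against -0.05, -0.03, -0.01 and -0.03 over all genes that could be called. These medians describe 5 genes that passed a floor on level and were not tested. No GC trend was subtracted from them. The parietal median of -0.46 was the value of *Fgf7*, whose log2 ratio went from -0.64 to -0.05 with the GC trend subtracted. The parietal comparison and the WT comparison share the WT parietal library.

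**Figure D2:**
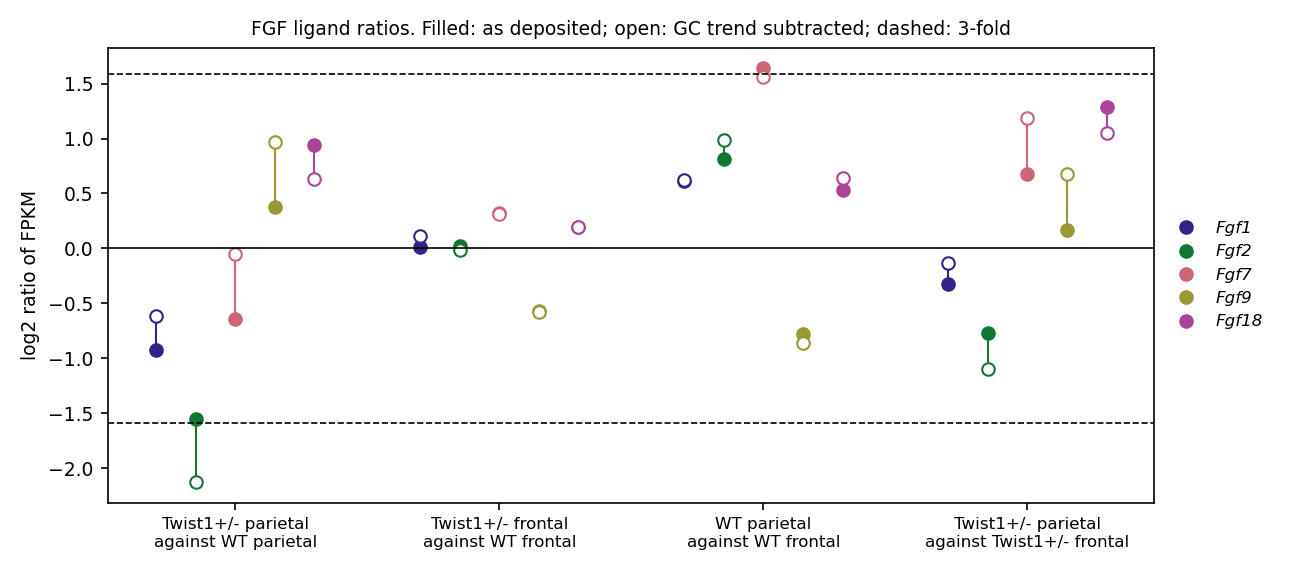
Log2 ratio of FPKM of the 5 ligands that reached 1 FPKM, in 4 comparisons of 2 libraries each; filled points are values as deposited, open points have the median of genes close in GC content subtracted, and dashed lines mark 3-fold. As deposited only *Fgf7* between the WT bones (1.64) lies outside the dashed lines, and after subtraction only *Fgf2* between the parietal libraries (-2.13) does.

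The ratio between the parietal libraries moved with the GC content of genes, and the ligands cover much of that range. Over 12554 genes the Spearman correlation of GC content with the log2 ratio was 0.546, a description across genes that are not replicates. Median log2 ratios ran from -0.59 in the lowest to 0.71 in the highest of 20 groups of genes by GC content. *Fgf7* (38.0% GC) had a log2 ratio of -0.64, close to the median of its group, and *Fgf1* (47.2%) and *Fgf18* (56.2%) lay on the side of 0 that their groups did. *Fgf9* (39.8%) was above its group, and its ratio went from 0.38 to 0.97 when the group's median was subtracted. *Fgf2* (59.4%) lay against the trend, and its ratio went from -1.55 to -2.13, past 3-fold. GC content is that of the longest coding transcript in the mm9 annotation, which for *Fgf2* has 1240 bases. A similar trend was present between the *Twist1*+/- bones, with a correlation of 0.416 over 12979 genes and group medians from -0.51 to 0.42. It was weaker between the frontal libraries (0.110) and between the WT bones (-0.134). Between the *Twist1*+/- bones its subtraction took *Fgf7* from 0.68 to 1.19 and *Fgf2* from -0.77 to -1.09, both past 2-fold. *Fgf18* went from 1.28 to 1.05 there. The share of GC content in the ligand ratios was not tested further.

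**Figure D3:**
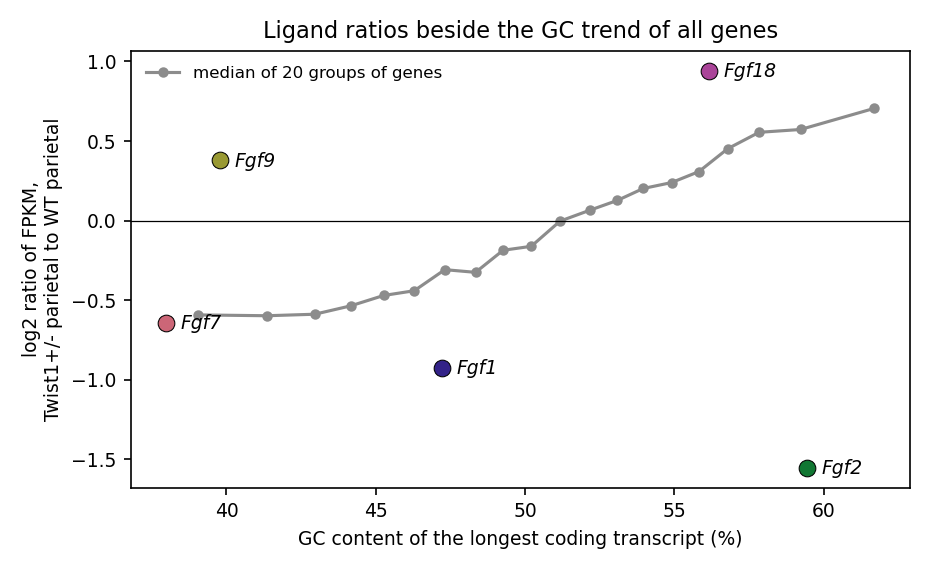
Log2 ratio of FPKM of the parietal library labelled *Twist1*+/- to WT parietal bone against GC content (%). Grey points are medians of 20 groups of genes, rising from -0.59 to 0.71, and coloured points are the 5 ligands. *Fgf2* lies far below the grey line at its GC content and *Fgf9* above it, while *Fgf7* lies near it.

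Of 54 genes for other FGFs, receptors and co-receptors, heparan sulfate cofactors, extracellular modulators and ERK feedback, 1 was higher and 1 lower by more than 3-fold between the parietal libraries, 0 and 1 between the frontal libraries, 2 and 3 between the WT bones, and 0 and 2 between the *Twist1*+/- bones. Of the 54, 42 or 43 reached 1 FPKM and could be called in a comparison, and the shares called over all genes were 8.19%, 3.89%, 13.3% and 4.09% in the same order. None of the 4 receptors and co-receptors (of 7 listed) and none of the 12 feedback genes and targets (of 13) that could be called was called in any of the 4 comparisons. *Fgf23*, the phosphate-regulating hormone, accounted for 3 of the 10 calls, with 20.9 FPKM in WT parietal, 0.202 in the parietal library labelled *Twist1*+/-, 0.525 in WT frontal and 1.004 FPKM in *Twist1*+/- frontal bone. *Fgfbp1*, a carrier that releases FGFs from heparan sulfate, was at 2.31 FPKM in WT frontal, 0.105 in WT parietal, 0.578 in *Twist1*+/- frontal and 0.788 FPKM in the parietal library labelled *Twist1*+/-. It was called lower in WT parietal and in *Twist1*+/- frontal bone, each against WT frontal bone. *Flrt1*, a receptor-binding membrane protein, was at 2.23 FPKM in WT frontal, 0.660 in WT parietal, 5.30 in *Twist1*+/- frontal and 3.32 FPKM in the parietal library labelled *Twist1*+/-. It was called lower in WT parietal than in WT frontal bone, and higher in the parietal library labelled *Twist1*+/- than in WT parietal bone. *Fgf12*, an intracellular member that binds sodium channels, was lower in parietal than in frontal bone in both genotypes, with log2 ratios of -2.93 in WT and -1.95 in *Twist1*+/- bones. In the same comparisons the 10 brain and meninges markers had median differences in log2(FPKM + 1) of -2.77 and -0.73. All 10 were called lower between the WT bones and 1, *Syt1*, between the *Twist1*+/- bones. The part of such tissue in the *Fgf12* values was not tested. *Sdc1*, a heparan sulfate proteoglycan of the cell surface, was higher in WT parietal (64.0 FPKM) than in WT frontal bone (18.9 FPKM).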

How the data were processed

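Bulk RNA-seq of frontal and parietal bones was analysed in 4 libraries, grouped by the sample labels. Per the methods and the submitters' processing notes, the authors sequenced stranded poly(A) libraries as single-end reads of 75 bases, aligned them to mm9 with STAR 2.4.2a and quantified genes with Cuffdiff (Cufflinks 2.2.1). Each deposited table gives a single FPKM value for every gene. The scaling option is not given in the sources used here.

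Ratios of FPKM were formed for all genes without a pseudocount. With 0 in a library, 1 FPKM or more in the other sufficed for a call. No test across replicates was possible. Positions, overlaps and GC content came from GENCODE M1 (mm9), which differs from the iGenomes annotation of the authors, and at least 90.5% of the genes at 1 FPKM had a GC value in each comparison. Start regions came from RefSeq (GRCm38.p6). Genes of 0.005 to 0.1 FPKM gave the relative value of a read between libraries, and 5108 single-transcript genes over 1000 bases the step of a read. The genes named are the ligands, called genes of the FGF pathway lists, *Twist1*, *Fgf23*, *Gapdh* and the 3 nearest patterns of a called ligand, with *Nudt6* and marker genes as checks. The members and lists were chosen with earlier results of these data known. Alternatives were other pseudocounts, floors and fold limits, scaling to the median ratio of 12291 genes or to *Gapdh*, and subtraction of the GC trend. The call rule was tested on simulated data with planted changes well past the 3-fold limit. That test does not bear on ratios close to the limit. Python 3.11.15, pandas 2.3.3, numpy 2.4.6 and scipy 1.17.1 were used.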

Additional observations from a re-analysis of the deposited data

Results flagged for a closer look

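Of the ligands, 5 had log2 ratios of *Twist1*+/- to WT with opposite signs in the parietal and frontal bones. With 1 library per group the difference between the bones was not tested. The difference, parietal minus frontal log2 ratio, was -0.93 for *Fgf1*, -1.58 for *Fgf2*, -0.96 for *Fgf7*, 0.95 for *Fgf9* and -1.77 for *Fgf10*. For *Fgf1* and *Fgf2* the frontal ratio was close to 0 (0.01 and 0.02), and its sign changed when libraries were scaled to *Gapdh*. With the GC trend subtracted the frontal ratio of *Fgf2* also changed sign, to -0.01, and the parietal ratio of *Fgf7* went from -0.64 to -0.05. The *Fgf18* ratio was above 0 in both bones (0.94 and 0.19) and that of *Fgf16* was below 0 in both, except that scaling to *Gapdh* brought its parietal ratio to 0.08. Opposite signs were found in 5 of the 7 ligands above 0 in every library, against 46.0% of 14542 genes above 0 in every library and at 1 FPKM or more in at least 1 library. These shares use unlike filters, since *Fgf10* and *Fgf16*, among the 7, stayed under 1 FPKM.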

How the results depend on the processing

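No paired analysis was possible because each group has 1 library, and for the same reason no library could be left out. The single call, *Fgf7* between the WT bones, rests on a ratio just past the limit. Between the WT bones the number of ligands called went from 1 to 0 with a pseudocount of 1 or 0.1 FPKM, with a floor of 10 FPKM, with scaling to *Gapdh* and with the GC trend subtracted, and to 2 without a floor. It was again 1 with scaling to the median ratio and with a 2-fold limit. Between the parietal libraries it went from 0 to 1 without a floor, with a 2-fold limit and with the GC trend subtracted. Without a floor it went from 0 to 2 between the frontal libraries and from 0 to 3 between the *Twist1*+/- bones, where a 2-fold limit gave 1. The ligands called only without a floor were *Fgf10*, *Fgf20* and *Fgf22*, which stayed under 1 FPKM. The median difference of the 10 ligands between the *Twist1*+/- bones went from -0.14 to -0.30 with log2(FPKM + 0.1). Of 150 recomputed log2 ratios of single ligands, 135 kept their direction and their side of 3-fold, 4 changed sign and 11 changed side. Scaling to the median ratio changed none of its 30. Values under 1 FPKM rest on few reads.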

Other observations

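The 5 other paracrine ligands, *Fgf3*, *Fgf4*, *Fgf5*, *Fgf6* and *Fgf17*, were under 1 FPKM in every library. *Fgf17*, of the Fgf8 subfamily, was at 0.1005 FPKM in WT frontal, 0.220 in WT parietal, 0.362 in *Twist1*+/- frontal and 0.351 FPKM in the parietal library labelled *Twist1*+/-. *Fgf6*, a ligand known from skeletal muscle, was at 0.181 FPKM in WT parietal and 0.156 FPKM in the parietal library labelled *Twist1*+/-, and was listed at 0 in both frontal libraries. *Fgf4* was listed at 0 throughout. These genes were named after their values were seen.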
